A study of Rattus norvegicus with 20 samples.

Results

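Rrh (ENSRNOG00000053349) and Abca4 (ENSRNOG00000012892) are genes of retinoid handling that were chosen by their levels in testosterone-treated obese rats, which lay in opposite directions from those of other rats, the injected lean rats among them. They are 2 of the 32883 genes measured in the choroid plexus. The values they were selected on are those of the treated obese animals beside the other rats. For these genes, comparisons that contain an injected group are therefore given as values without a test. Only the comparison of untreated obese with untreated lean rats was tested for them. The untreated obese rats may also have taken part in the choice, so that test is not fully independent of it. RNA was sequenced from 20 female Zucker rats at 16 weeks of age, with 1 library per rat. The untreated cohort held 6 lean rats, heterozygous for the fa mutation of the leptin receptor (+/fa), and 6 obese rats homozygous for it (fa/fa), all on normal chow. A second cohort held 4 lean control rats (+/fa) given subcutaneous sesame oil as vehicle, and 4 obese rats (fa/fa) given testosterone propionate in the same oil during the last weeks (obese + TT). Lean rats of both cohorts thus carried one copy of the mutation. No obese rat was injected with oil alone and no lean rat received testosterone, so obesity and testosterone cannot be told apart in the comparison of obese + TT with lean control, and testosterone, injection and cohort cannot be told apart in that of obese + TT with obese.

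Rrh encodes peropsin, an opsin of the retinal pigment epithelium that binds retinal, and Abca4 encodes an ABC transporter that clears retinal bound to phosphatidylethanolamine from the membranes of photoreceptor discs. In the eye, retinal that has absorbed light is reduced to retinol, esterified by Lrat, turned back into the cis form by Rpe65 and carried by Rlbp1. The choroid plexus is the epithelium that secretes cerebrospinal fluid; it is known for its very high output of transthyretin (Ttr), a carrier of thyroid hormone and, with retinol-binding protein, of retinol.

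The libraries were those of choroid plexus. Of 13 markers of choroid plexus epithelium, 12 could be matched to a gene in the files, none of them was listed at 0 in every library, and Ttr held from 25.8 to 39.3% of all TPM in each library. TPM, a measure of transcript abundance, is scaled for gene length and to the same total in every library, so levels of different genes can be set side by side on it. How many reads stand behind each value is not given by the files.

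The promoters of the pair are shown because the genes lie on the same chromosome and had opposite patterns. Both are RefSeq sequences of build GRCr8, from base -250 to base -16 relative to the start of transcription, written 5′ to 3′ on the strand of the gene, with Rrh at chr2:221048643-221048877 on the minus strand and Abca4 at chr2:212849235-212849469 on the plus strand. Capitals mark a match of a motif searched on both strands.
Rrh: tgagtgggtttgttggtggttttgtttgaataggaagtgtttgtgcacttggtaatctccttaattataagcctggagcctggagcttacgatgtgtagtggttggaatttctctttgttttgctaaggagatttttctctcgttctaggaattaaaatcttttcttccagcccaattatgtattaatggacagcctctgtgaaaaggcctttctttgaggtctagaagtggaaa
Abca4: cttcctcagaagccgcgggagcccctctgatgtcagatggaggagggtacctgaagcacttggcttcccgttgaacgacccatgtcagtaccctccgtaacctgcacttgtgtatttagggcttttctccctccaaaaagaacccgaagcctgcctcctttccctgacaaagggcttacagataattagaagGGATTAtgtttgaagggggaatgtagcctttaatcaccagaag
The Abca4 window held 1 match, beginning at base -58, of TAATCC, the core bound by homeodomain factors such as Otx2, here on the opposite strand as GGATTA. The same core was present in 6.03% of 33469 promoters of this length. Neither window held AGAACA, a core of steroid receptor sites that 16.5% of promoters had, or AGGTCA, a core of retinoid receptor sites that 13.22% had, and the Rrh window held none of the 3. A match is a description of the letters and not of binding. These coordinates belong to a later build than the Rnor_6.0 to which the reads were mapped, and no other gene of that annotation overlapped either gene.

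Rrh was lowest in obese + TT. Its level there was 2.88, 1.97, 2.91 and 2.37 TPM in the 4 rats, with a mean of 2.53 ± 0.45 (SD, n = 4). In lean control it was 5.75, 14.84, 11.6 and 6.84 TPM, with a mean of 9.76 ± 4.23 (SD, n = 4). Every obese + TT rat was thus below every lean control rat, and the lean control rats spread widely among themselves. Of 15262 genes tested in this comparison, 1.66% were lower in every obese + TT rat than in every lean control rat, and since this contrast chose Rrh, nothing is read from that share. The mean of obese + TT was 3.85-fold below that of lean control. Because the tissue was sequenced in bulk, fewer cells with a transcript and less transcript per cell cannot be told apart, here and in each comparison that follows.

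Rrh was higher than in obese + TT in every untreated rat. The lean rats ran from 6.51 over a median of 9.42 to 11.13 TPM, with a mean of 9.22 ± 1.57 (SD, n = 6). The obese rats ran from 4.63 over a median of 8.22 to 11.27 TPM, with a mean of 8.13 ± 2.27 (SD, n = 6). The lean, obese and lean control rats overlapped each other in every pairing, while none of these 16 rats was as low as the highest obese + TT rat. The mean of obese + TT was 3.21-fold below that of obese, where 11.7% of 15392 genes were lower in every rat of the first group. The order of the means was lean control, lean, obese and obese + TT, and only the last step was wider than the spread of the rats.

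Abca4 was highest in obese + TT and was also high in lean control. The 4 obese + TT rats were at 99.69, 97.16, 102.66 and 96.99 TPM, with a mean of 99.1 ± 2.66 (SD, n = 4). The lean control rats were at 78.43, 81.99, 74.5 and 90.41 TPM, with a mean of 81.3 ± 6.78 (SD, n = 4). The groups did not overlap, as was so in this direction for 2.37% of the genes in the comparison that chose Abca4. The mean of obese + TT was 1.22-fold that of lean control, a much smaller distance than for Rrh.

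The untreated rats lay well below both injected groups for Abca4. The lean rats ran from 34.32 over a median of 40.4 to 44.78 TPM, with a mean of 39.7 ± 3.67 (SD, n = 6). The obese rats ran from 33.5 over a median of 40.2 to 47.45 TPM, with a mean of 40.3 ± 5.19 (SD, n = 6). Lean and obese overlapped, and all 8 injected rats were above all 12 untreated rats. The mean of lean control was 2.05-fold that of lean and the mean of obese + TT was 2.46-fold that of obese. Such a gap in the same direction was common, being found in 34% of 15327 genes between lean control and lean and in 34.1% of genes between obese + TT and obese. The order of the means was obese + TT, lean control, obese and lean, and obese and lean did not differ beyond their spread.

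**Figure D1:**
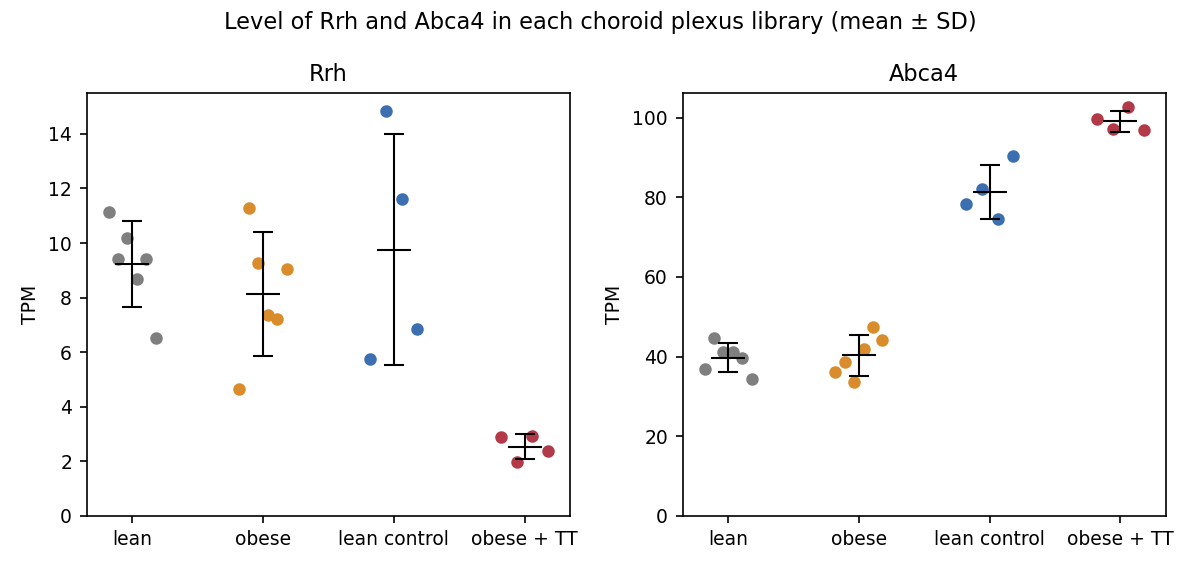
Level of Rrh (left) and Abca4 (right) in TPM in each of the 20 libraries, by group, with 1 point per rat and a bar for the mean and SD. The 4 obese + TT rats are the lowest for Rrh, at 1.97 to 2.91 TPM, and the highest for Abca4, at 96.99 to 102.66 TPM, and the lean control rats are at 74.5 to 90.41 TPM for Abca4 and 5.75 to 14.84 TPM for Rrh.

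Obesity alone was the question of the untreated cohort, and neither gene passed the test there. On the scale of log2(TPM + 0.1), Rrh was at -0.21 ± 0.18 (SE) in obese relative to lean, with an adjusted p of 0.765 by limma and an exact two-sided permutation p of 0.3506 (n = 6 and 6). It was at -0.062 without obese rat 7, which had the lowest Rrh of the untreated rats, and at -0.32 without obese rat 8, which had the highest, and at -0.11 with libraries scaled to the geometric mean of the epithelial markers without Ttr. The 95% interval of that difference, from the exact permutation test, ran from -0.69 to 0.23. For Abca4 the difference was 0.017 ± 0.090 (SE), with an adjusted p of 0.978 by limma and an exact two-sided permutation p of 0.8593 (n = 6 and 6). It was at 0.12 with libraries scaled to the geometric mean of the epithelial markers without Ttr. Its interval ran from -0.20 to 0.23, and both intervals held 0. The 924 ways to split these rats allow a p as small as 0.002165. Limma called 0 of 15176 genes in this comparison (0%) and 9.66% had an unadjusted p under 0.05. The study's own test, DESeq2 on raw counts, did call genes here, so 0 calls by limma on TPM do not show that no gene changed.

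The log2 differences show the opposite directions as the rule defines them. Between obese + TT and lean control the log2 difference was -1.82 ± 0.28 (SE) for Rrh and 0.29 ± 0.06 for Abca4. Among 11939 genes averaging 1 TPM or more over these 8 libraries, 30 had a lower value than Rrh, and 734, or 6.15%, had a higher value than Abca4. Since this contrast chose both genes, nothing is read from these ranks. Taking away the untreated difference of obese and lean left -1.61 ± 0.34 for Rrh and 0.27 ± 0.12 for Abca4, in 1 fit of the 20 libraries. With libraries scaled to the epithelial markers without Ttr, the value for Abca4 was 0.15 by their geometric mean and 0.16 by their median.

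The oil-injected lean rats, whose values were also used in choosing the genes, were set against the untreated lean rats. Between lean control and lean, which share the genotype and differ by injection and cohort, the log2 difference was -0.0038 ± 0.24 (SE) for Rrh and 1.04 ± 0.08 for Abca4. Between obese + TT and obese it was -1.61 ± 0.22 for Rrh and 1.31 ± 0.09 for Abca4. The median over all genes was at 0.24 in the first of these comparisons and 0.25 in the second, and relative to it the values were -0.25 and -1.86 for Rrh and 0.79 and 1.06 for Abca4. For Abca4 the lean control rats did not overlap the lean rats. For Rrh the mean of lean control lay within 1 SD of the mean of lean, and the groups overlapped, in a comparison in which 10.7% of genes were lower in every lean control rat. With libraries scaled to the geometric mean of the epithelial markers without Ttr, the difference between lean control and lean was -0.52 for Rrh and 0.51 for Abca4.

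**Figure D2:**
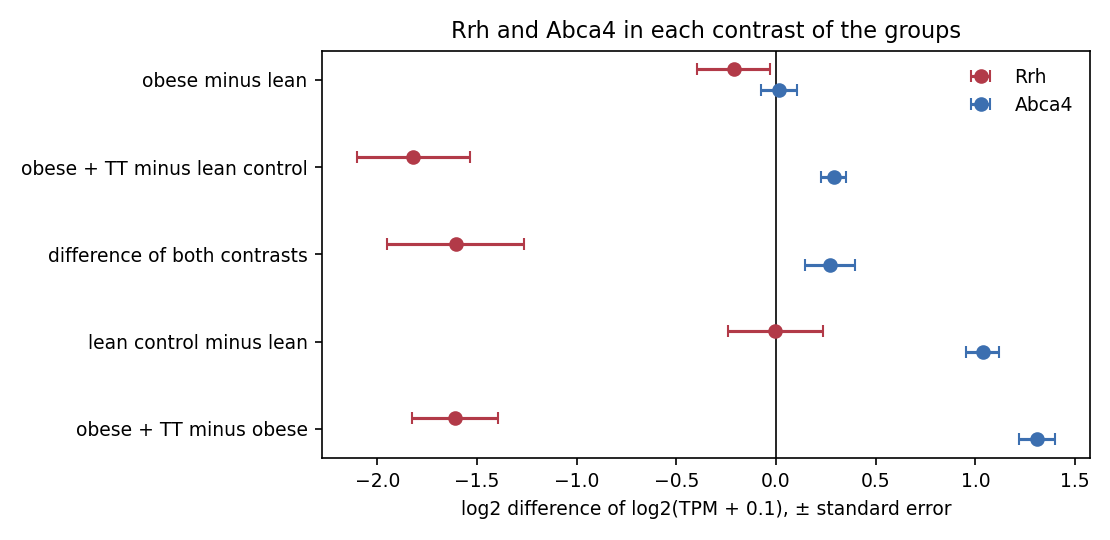
Difference of log2(TPM + 0.1) for Rrh (red) and Abca4 (blue) in each contrast of the groups, with bars for the standard error from limma. Rrh is far below 0 in the contrasts that hold obese + TT and close to 0 between lean control and lean, where Abca4 is at 1.04.

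Set against each other within a library, the levels of the pair lay furthest apart in obese + TT. The TPM of Abca4 was 3.31 to 5.27 times that of Rrh in the lean rats, with a median of 4.47, and 3.42 to 7.80 times in the obese rats, with a median of 5.27. It was 5.52 to 13.64 times in lean control, with a median of 9.82, and 34.6 to 49.3 times in obese + TT, with a median of 38.1. The obese + TT rats were above all others by this ratio, which uses both values that chose the genes and is given as a description.

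The other genes of the retinoid pathway were taken from 7 lists that name 77 genes, namely visual cycle, retinol transport, retinoic acid metabolism, receptors, retinoic acid targets, opsins and ABCA transporters. A symbol could be paired with an identifier for 14 of them, Rrh and Abca4 included, and the other genes of the lists were not analysed here. The pairs come from lists of the most abundant genes and of genes the study itself called on these samples, by DESeq2 on raw counts. The directions of those so chosen (Rpe65, Rdh11, Rlbp1, Lrat, Fabp5, Rarg, Stra6 and Tgm2) are therefore not independent evidence. Nor are the counts of list genes with a low unadjusted p, which such a choice can raise. Nothing is read from those counts beside the shares of all genes. Of the 12 genes other than Rrh and Abca4, 0 passed an adjusted p of 0.05 by limma in either comparison of the study. Limma on TPM thus called fewer genes than the study's test did, and a gene it did not call is not shown to be unchanged. Between obese and lean, 3 had higher and 9 lower means on the log2 scale, with a median of -0.14 beside 0.02 over all genes, and 5 had an unadjusted p under 0.05, 1 of them higher (as 5.91% of all genes were) and 4 lower (3.75%). In that comparison 10 of 12 epithelial markers were lower and the 4 named erythroid genes higher. The lower epithelial markers ran from -0.011 (Enpp2) to -0.35 (Otx2, at 7.85 TPM in obese rat 10). The erythroid gene Slc4a1 had means of only 0.18 TPM in lean and 0.48 TPM in obese, and the study chose it on these samples. The share of all genes in each direction is not given here. Scaled to the geometric mean of the epithelial markers without Ttr, 5 of the 12 retinoid-list genes were higher and 7 lower, with a median of -0.036 beside 0.12 over all genes. Scaled to their median, 3 of these genes were higher and 9 lower, with a median of -0.083 beside 0.075. Between obese + TT and lean control, 5 were higher and 7 lower, with a median of -0.08 beside 0.0092 over all genes, and 5 had an unadjusted p under 0.05, 2 higher (as 4.25% of all genes were) and 3 lower (3.18%). With libraries scaled to the epithelial markers without Ttr, 2901 genes were higher and 214 lower at that unadjusted p between obese and lean by their geometric mean, and 1885 and 371 by their median, where the unscaled counts were 897 and 569. The unscaled counts between obese + TT and lean control were 648 higher and 486 lower, with 424 and 664 by the geometric mean and 281 and 1007 by the median. Over all genes the unscaled share was 9.66% in the first comparison and 7.43% in the second, where limma called 0 of 15262 genes (0%).

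Among the enzymes and carriers of the visual cycle, Rpe65, the isomerase, was the 1 of 4 named genes other than Rrh and Abca4 whose untreated groups were apart. Its level ran from 4.62 over a median of 5.05 to 6.73 TPM in lean against 2.61 over 3.41 to 4.12 TPM in obese. The groups did not overlap, which held for 0.244% of genes in this direction and for 0.297% in the other. The log2 difference was -0.65 ± 0.13 (SE), with an adjusted p of 0.191 by limma, so it did not pass the test. In the injected cohort the mean of Rpe65 was 3.24 ± 0.62 TPM for lean control and 3.06 ± 0.36 TPM for obese + TT (SD, n = 4 each), and these overlapped.

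Lrat, which esterifies retinol, was the 1 of these 4 genes with a higher mean in obese + TT than in lean control. It was at 8.74, 6.6, 6.03 and 4.93 TPM in lean control and at 9.79, 11.95, 11.48 and 9.88 TPM in obese + TT, and the groups did not overlap, as was so in this direction for 2.37% of genes. The log2 difference was 0.73 ± 0.16 (SE) with an adjusted p of 0.385 by limma. The untreated groups overlapped, at 3.84 ± 0.92 TPM in lean against 4.57 ± 1.83 TPM in obese (SD, n = 6 each).

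Rlbp1, the carrier of cis retinal, and Rdh11, a retinol dehydrogenase, had lower means in the obese group of both cohorts. Rlbp1 was 89.4 ± 6.35 TPM in lean against 68.8 ± 15.5 TPM in obese (SD, n = 6 each), with a log2 difference of -0.41 ± 0.14 (SE) and an adjusted p of 0.344 by limma, and 119 ± 19.7 TPM in lean control, against 94.2 ± 2.64 TPM in obese + TT (SD, n = 4 each), at -0.32 ± 0.11 and 0.594. Rdh11 was 75.1 ± 6.37 and 60.4 ± 5.65 TPM in the untreated groups, at -0.31 ± 0.08 (SE) and an adjusted p of 0.211 by limma, and 104.06 ± 13.0 and 81.3 ± 4.36 TPM in the injected groups, at -0.35 ± 0.09 and 0.492. The groups of each comparison overlapped for both genes.

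Of the genes that take up, carry and bind retinol, Stra6, the membrane receptor for retinol-binding protein, was separated in the injected cohort. It was at 109.47, 90.83, 85.02 and 96.24 TPM in lean control and at 126.78, 111.52, 115.74 and 121.96 TPM in obese + TT. The lowest obese + TT rat was just above the highest lean control rat, a separation that 2.37% of genes had in this direction, and the log2 difference was 0.32 ± 0.08 (SE) with an adjusted p of 0.474 by limma. Between obese and lean the groups overlapped for Stra6, at -0.10 ± 0.10 (SE). Ttr, Crabp2, which binds retinoic acid, and Fabp5, which binds fatty acids and retinoic acid, overlapped in both comparisons, with log2 differences from -0.18 to 0.03 between obese and lean and from -0.08 to 0.07 between obese + TT and lean control.

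Genes further along, toward retinoic acid and its receptors, did not pass the test either. Dhrs3, which reduces retinal to retinol, was 71.8 ± 5.90 TPM in lean against 59.1 ± 6.15 TPM in obese (SD, n = 6 each), at a log2 difference of -0.28 ± 0.08 (SE) and an adjusted p of 0.284 by limma. Rarg, a retinoic acid receptor, was 3.09 ± 0.47 TPM in lean against 4.57 ± 0.60 TPM in obese (SD, n = 6 each), at 0.55 ± 0.12 (SE) and an adjusted p of 0.208 by limma, and the groups overlapped by 1 lean rat at 4.02 TPM. Tgm2, a transglutaminase that responds to retinoic acid in many cells, was 4.61 ± 1.48 TPM in lean control, against 2.57 ± 0.69 TPM in obese + TT (SD, n = 4 each), at -0.79 ± 0.26 (SE) and an adjusted p of 0.592 by limma, and the groups overlapped. In the other comparison of the study each of these genes was closer to 0 (Dhrs3 -0.13, Rarg -0.21, Tgm2 -0.08).

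Abca2, the other ABCA transporter that could be named, a lipid transporter of lysosomes, was 67.8 ± 6.07 TPM in lean, 63.7 ± 13.4 TPM in obese, 134 ± 14.4 TPM for lean control and 142 ± 8.71 TPM for obese + TT (SD, n = 6, 6, 4 and 4). It was thus high in both injected groups, as Abca4 was, and its log2 difference between obese + TT and lean control was 0.09 ± 0.08 (SE), with an adjusted p of 0.831 by limma. A test of the difference between both comparisons, over the 20 libraries, gave adjusted p-values by limma of 0.216 or more for all 12 genes. The smallest was that of Rarg, at a log2 difference of -0.76 ± 0.18 (SE). With libraries scaled to the geometric mean of the epithelial markers, Rarg passed by limma, at -0.89 ± 0.16 (SE) and an adjusted p of 0.0235, but it did not pass with their median. The median was added because of the low Otx2 of 1 obese rat, and the cause of the lost call was not tested.

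**Figure D3:**
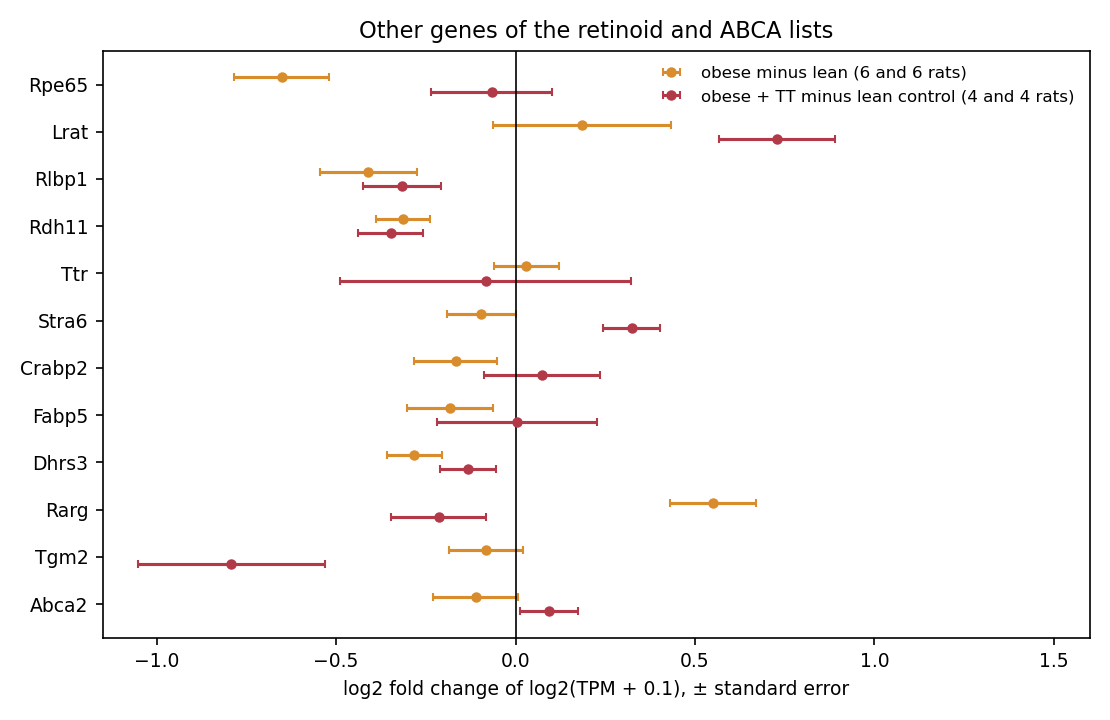
Log2 difference of log2(TPM + 0.1) for the 12 other genes of the retinoid and ABCA lists, between obese and lean (6 and 6 rats, orange) and between obese + TT and lean control (4 and 4 rats, red), with bars for the standard error from limma. None passes an adjusted p of 0.05; Rpe65 is lowest between obese and lean, and Lrat highest and Tgm2 lowest between obese + TT and lean control.

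Markers of other cells were set beside the cohort difference of Abca4. Between lean control and lean, 10 of the 12 choroid plexus epithelial markers had higher and 2 (Ttr and Cldn1) lower log2 means, for example Kl at 1.12, Kcnj13 at 1.07 and Clic6 at 0.59. With libraries scaled by the median ratio of their genes, or in FPKM, 9 of the 12 were higher, Aqp1 turning to lower. The geometric mean of these markers without Ttr was 488 to 581 TPM in the lean and 398 to 564 TPM in the obese rats, and 739 to 816 TPM in the lean control and 743 to 835 TPM in the obese + TT rats. Dcn and Col1a1, genes of stroma and meninges, were at -3.08 and -3.10, and Plvap, of fenestrated endothelium, at -3.41, while Pdgfra was at 1.31. The summed level of the 3 stromal genes that could be named, of 8 listed, was 107 to 139 TPM in lean, 107 to 150 TPM in obese, 51.1 to 91.0 TPM in lean control and 62.9 to 79.4 TPM in obese + TT. Plvap, the 1 endothelial marker of 7, was 39.95 to 60.34 TPM in the untreated and 1.68 to 10.58 TPM in the injected rats. Between lean control and lean, the astrocyte marker Gja1 was at -1.74. The 4 erythroid genes that could be named went both ways, with Hba-a1 at -0.53, Hba-a2 at -0.55, Hbb at -0.039 and Slc4a1 at 0.15. Ribosomal protein genes took a mean of 4.24% of TPM in lean control and 5.21% in lean. The part of these markers in the Abca4 difference was not tested. With each library scaled to the geometric mean of the epithelial markers without Ttr, the log2 difference between obese + TT and obese was 0.66 for Abca4 and -2.24 for Rrh.

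**Figure D4:**
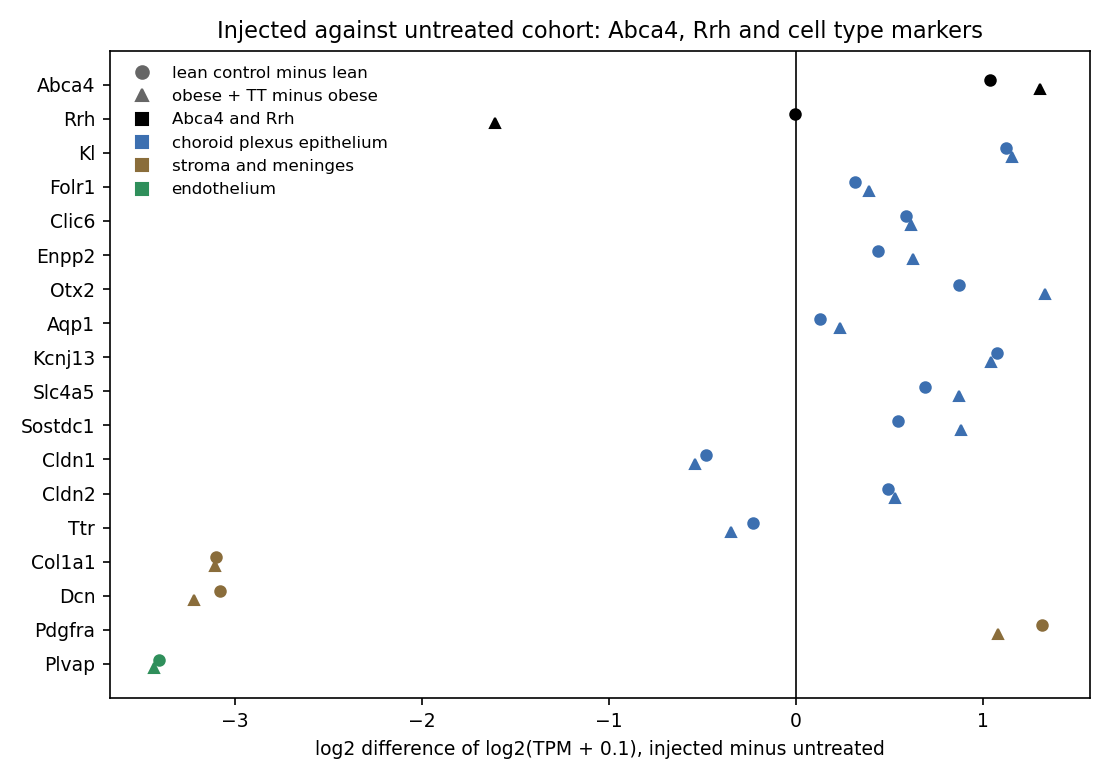
Difference of log2(TPM + 0.1) between injected and untreated rats for Abca4 and Rrh (black) and for markers of choroid plexus epithelium (blue), stroma and meninges (brown) and endothelium (green), with circles for lean control minus lean and triangles for obese + TT minus obese. Between lean control and lean, Abca4 is at 1.04, the epithelial markers run from -0.48 (Cldn1) to 1.12 (Kl), and Dcn, Col1a1 and Plvap are at -3.08 to -3.41 while the stromal gene Pdgfra is at 1.31. Rrh is near 0 there and at -1.61 between obese + TT and obese.

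Within the injected cohort the epithelial markers were split evenly, with 6 higher and 6 lower in obese + TT than in lean control, and 5 higher in FPKM. The summed erythroid genes, of which Hba-a1 is the most abundant and 4 of 5 could be named, were 2168 to 5768 TPM in lean control, against 4799 to 8388 TPM in obese + TT. Gja1, the 1 astrocyte marker of 5 that could be named, was 1.21 to 2.47 TPM in lean control and 2.94 to 3.39 TPM in obese + TT, without overlap, as for 2.37% of genes in this direction, and it is a gene that the study chose on these samples. Genes encoded in the mitochondrial genome took 8.88 to 10.2% and 9.73 to 11.2% of TPM, and ribosomal protein genes 4.03 to 4.65% and 4.06 to 4.31%. The lean control rat with the highest Rrh, rat 14, had the fewest genes above 0, 14968, where the other rats ranged from 15609 to 16860. Lean control rat 15, with the next highest Rrh, had 16772, the most of its group. Obese + TT rat 18, with the lowest Rrh, had 15609, the fewest of its group. The part of these values in the Rrh difference was not tested. Of 16 photoreceptor genes, Gnat2, cone transducin, was the 1 that could be named, at 4.61 to 8.92 TPM in the 20 libraries, and no pineal gene of 10 could be named, so the other defining markers of retina and pineal gland were not analysed here.

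The genes whose pattern was most like that of Rrh were sought by Pearson's r of log2(TPM + 0.1) over the 20 libraries, among 12093 genes averaging 1 TPM or more. With the mean of each group taken away, the highest were Selenop (0.83), Churc1 (0.82), an unnamed gene (0.82), Mien1 (0.81) and Gsta4 (0.79). Without that step they were Dpm3 (0.87), an unnamed gene (0.83), Ndufa4 (0.81), Npc2 (0.81) and LOC498555 (0.81), and mean Dpm3 was 324 TPM in lean, 321 TPM in obese, 305 TPM for lean control and 215 TPM for obese + TT. Each of these genes had a higher mean than Rrh in every group, and none of those with a symbol was in the retinoid lists. For Abca4 the highest with group means taken away were an unnamed gene (0.91), Prpf8 (0.89), 2 unnamed genes (0.89 and 0.88) and Fam120a (0.87), and without that step an unnamed gene (0.99), Reln (0.99), an unnamed gene (0.99), Parva (0.99) and an unnamed gene (0.98). Mean Reln was 22.7 TPM for lean and 23.1 TPM for obese, and 87.5 TPM for lean control and 101 TPM for obese + TT, so that it followed the cohort as Abca4 did. Rrh and Abca4 correlated at -0.59 over the libraries and at 0.06 with group means taken away. The libraries come from both cohorts, whose difference enters each correlation made without that step, and no p is given. The obese + TT values that chose the pair enter these correlations too. Nothing is therefore read from the -0.59 or from the lists made without that step.

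Neighbours of the genes in the RefSeq annotation were looked at for levels of their own. Egf, the second gene before Rrh, had means of 3.22 TPM in lean, 2.36 TPM in obese, 2.53 TPM for lean control and 2.53 TPM for obese + TT. Arhgap29, the gene before Abca4, had means of 4.79 TPM in lean, 5.81 TPM in obese, 4.34 TPM for lean control and 4.00 TPM for obese + TT. The mean of Egf in obese + TT was close to that in obese and lean control, unlike that of Rrh, and the means of Arhgap29 in the injected groups were below those in the untreated groups, unlike those of Abca4. These differences were not tested. Lrit3, Gar1 and LOC134485966 beside Rrh, and LOC108350286, LOC102555028 and Gclm beside Abca4, were not analysed here.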

How the data were processed

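RNA of choroid plexus from the lateral and the fourth ventricle was kept in RNAlater, made into libraries with a kit not stated to mark strand, and sequenced in pairs. According to the submitters' processing notes STAR 2.7.9a, RSEM 1.3.3 and DESeq2 were used, with the build Rnor_6.0. The authors deposited TPM and FPKM for 32883 genes in each of 20 libraries; which program made them is not given in the sources used here, and counts were not analysed here. The study states a nominal sequencing output, but no whole reads could be recovered from the files, so how many reads a value rests on is unknown.

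TPM was tested as log2(TPM + 0.1) with limma 3.58.1 in R 4.3.3 (trended eBayes), for genes averaging 0.1 TPM or more over the libraries fitted, with Benjamini-Hochberg adjustment and a threshold of 0.05. For Rrh and Abca4 an exact two-sided permutation test over rats was added with scipy 1.17.1. The limma test was checked on simulated data. Each replicate is a rat, and the 42 pairs of libraries within groups shared at most 0.82% of identical values.

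The genes and gene lists were chosen with earlier results of these data known. The genes named are Rrh and Abca4, the list members that reach a mean of 1 TPM in any group or an unadjusted p under 0.05, the 5 genes most like each of the pair by either measure, and 2 annotated neighbours on each side. Symbols were paired with 2616 identifiers from lists that the study gives. 1 gene of the pathway lists is not reported here and is left out of their counts. Lists without a named gene were those of pineal gland, ependyma, macrophages, neurons and oligodendrocytes. Alternatives were the pseudocount, the filter on low values, the scaling, FPKM, a robust fit, 1 fit of all libraries and each rat left out.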

Additional observations from a re-analysis of the deposited data

Results flagged for a closer look

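In groups of 4 to 10 rats, a rat was marked where its gap to the nearest other rat took up more of the group's range than a 95% limit for the group's size allows. Of 140 groups of values 8 were marked, where chance gives about 7.0. No rat was marked for Rrh or Abca4.

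Otx2, a homeodomain factor of choroid plexus epithelium, was at 7.85 TPM in obese rat 10, where the other 5 obese rats were at 67.29 to 85.94 TPM. It was at 200.06 TPM in obese + TT rat 20, where the other 3 were at 107.3 to 115.01 TPM. Folr1, the folate receptor, was at 970.43 TPM in obese rat 10, with the others at 1067.23 to 1111.78 TPM, and at 1245.0 TPM in lean control rat 15, with the others at 1379.86 to 1400.2 TPM. The erythroid genes Hba-a1 and Hba-a2 were at 3302.78 and 1105.64 TPM in lean control rat 13, with the others at 1213.2 to 1286.82 and 409.15 to 495.78 TPM. Col1a1, a collagen gene, was at 1.47 TPM in obese + TT rat 20, with the others at 0.53 to 0.61 TPM. Rarg was at 4.02 TPM in lean rat 5, with the others at 2.72 to 3.05 TPM. The causes were not tested.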

How the results depend on the processing

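Between obese + TT and lean control, the log2 difference stayed below 0 for Rrh (-1.87 to -1.53 over the settings, -2.04 to -1.58 with each rat left out) and above 0 for Abca4 (0.23 to 0.29 and 0.25 to 0.34). Abca4 between obese and lean changed sign, at -0.0020 with median ratio scaling and -0.032 to 0.068 with each rat left out, and was at 0.12 and 0.073 with libraries scaled to the geometric mean or the median of the epithelial markers without Ttr. Between obese + TT and obese, Rrh was at -1.34 with a pseudocount of 1 TPM. It was at -2.24 with the geometric mean and -2.25 with the median of the markers, both chosen after seeing the data. The median was added because of the low Otx2 of obese rat 10. In the same comparison Abca4 was at 1.02 with median ratio scaling, 1.03 in FPKM, and 0.66 and 0.65 with the marker scalings. Between lean control and lean, Rrh was at 0.0033 with a pseudocount of 1 TPM, -0.52 and -0.54 with the marker scalings, and -0.24 to 0.21 with each rat left out, and Abca4 at 0.74 with median ratio scaling, 0.78 in FPKM, and 0.51 and 0.49 with the marker scalings. Genes with an adjusted p under 0.05 by limma between obese and lean numbered 1 with median ratio scaling, 1 in FPKM, 3 in a fit of all libraries, 116 with the geometric mean of the markers (1 of them in the retinoid lists, Rarg), 1 with their median, which is not Rarg, and 0 to 1 with each rat left out. Between obese + TT and lean control they numbered 2 with median ratio scaling, 6 in a fit of all libraries and 0 to 25 with each rat left out, 25 without lean control rat 13. For the difference of both comparisons, 0 genes passed by limma (1288 at an unadjusted p under 0.05), but 45 with the geometric mean of the markers, Rarg among them, 9 with their median, Rarg not among them, 5 without Ttr and mitochondrially encoded genes, and 0 to 14 with each rat left out, 14 without lean control rat 13. The causes were not tested. No paired analysis was possible because the groups share no rat numbers. The groups of 4 rats and the unknown number of reads behind a value limit what can be seen of the low level of Rrh, and a difference that missed the threshold is not shown to be absent.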
